A study of Mus musculus with 6 samples.

Results

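The genes described here encode proteins of the mitochondrial ribosome. They were chosen by name, as the rows of the deposited count table whose symbol is Mrpl or Mrps followed by a number and, in some cases, the letter a, b or c. This rule found 76 of 23420 rows, of which 47 carry a large-subunit name (Mrpl) and 29 a small-subunit name (Mrps). All 76 passed the filter on low counts that 14340 rows passed. They were compared between mouse embryonic stem (ES) cells carrying a lentivirus for wild-type KBP (replicates 1, 2 and 3) and ES cells carrying a lentivirus for KBP(KK/RR) (replicates 4, 5 and 6). KBP is the Kif1-binding protein, and the labels describe KBP(KK/RR) as a stable mutant of it. Both groups were stably transduced and grown under self-renewing conditions, and cells without a virus were not analysed here. The labels do not say whether the 3 libraries of a group came from separate cultures, so p-values measure the spread between these libraries, which may be technical.

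The mitochondrial ribosome translates the few messenger RNAs encoded in mitochondrial DNA, whose products are core subunits of the respiratory chain and of ATP synthase. Its ribosomal RNAs are made inside the organelle, whereas its proteins are encoded in the nucleus, made in the cytosol and imported. Some of these proteins have a bacterial counterpart, and others were added during the evolution of mitochondria. KBP was first described as a partner of a kinesin that moves mitochondria, and the comparison asks how transcript levels, here those of this ribosome, differ with the form of KBP that the cells received.

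Library totals ran from 24131743 to 32160411 counts. A member had between 366 counts (Mrpl14) and 4787 counts (Mrpl15) in a library (counting error of 5.23% and 1.45% of the value). Replicates of a group spread by a median SD of 0.05 on the log2 scale over members. All 9 ES cell markers, among them Pou5f1, Nanog and Sox2, were present in both groups, with a summed level of 6330 to 6390 CPM (counts scaled to the size of the library) in wild-type KBP and 6270 to 6480 CPM in KBP(KK/RR) libraries. The 8 fibroblast or feeder markers summed to 20.3 to 23.1 and 20.8 to 21.0 CPM, with 4 of them under 1 CPM. The 8 primitive endoderm markers summed to 320 to 394 CPM in wild-type KBP and 251 to 298 CPM in KBP(KK/RR) libraries, so these groups did not overlap, and their part in the results below was not tested. The 6 neural markers summed to 178 to 183 and 181 to 190 CPM, and the 7 trophectoderm markers to 55.4 to 64.2 and 53.4 to 61.6 CPM. The KBP gene (2510003E04Rik in the table) measured 47.0 to 49.6 CPM in wild-type KBP and 53.9 to 59.6 CPM in KBP(KK/RR) libraries. Its log2 fold change, KBP(KK/RR) minus wild-type KBP, was 0.23 (standard error 0.05, adjusted p = 0.0133 in the edgeR test described below). The form of KBP and the level of its transcript thus differed together between the groups. Whether the reads of the KBP gene came from the endogenous gene or from the vector was not tested.

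Transcripts of the mitochondrial ribosome differed between the groups by small amounts, mostly on the higher side in KBP(KK/RR) cells, and no single gene passed the test. Differences are log2 fold changes, KBP(KK/RR) minus wild-type KBP. Of the 76 members 65 had a positive difference, which is 85.5% of them, against 49.2% of all 14340 genes tested. Their median difference was 0.06, a fold of 1.04, and that of all tested genes was -0.002. In edgeR's quasi-likelihood test with Benjamini-Hochberg adjustment over all tested genes, 0 members had an adjusted p under 0.05, where 3.12% of all tested genes did (1.05% higher and 2.07% lower). DESeq2 and limma-voom also called 0 members, against 2.72% and 1.88% of the genes they tested. Without adjustment, 13 members had an edgeR p under 0.05, all on the higher side, as had 13 members in limma-voom and 8 in DESeq2. In edgeR this was 17.1% of the members against 8.32% of all tested genes on the higher side, and 0 members against 10.3% on the lower side. This number was 7 after removal of a trend on transcript length and GC content from each library. It was 4 with KBP(KK/RR) replicate 6 left out and 6 with wild-type KBP replicate 3 left out. For the unadjusted p, the share of all tested genes is given for the main edgeR fit only. At an edgeR adjusted p under 0.05, all genes called were 5.1% (trend removed), 0.852% (without KBP(KK/RR) replicate 6) and 1.9% (without wild-type KBP replicate 3). The lowest CPM of the KBP(KK/RR) libraries lay above the highest of the wild-type KBP libraries in 26 members (34.2%), where 11.8% of all tested genes had this order. The reverse order was seen in 0 members and in 10.5% of all tested genes. Of the 2841 tested genes in the shortest of 5 groups by transcript length, 60.3% had a positive difference. In edgeR 339 of them (11.9%) had an unadjusted p under 0.05 on the higher and 155 on the lower side. Wild-type KBP and KBP(KK/RR) libraries did not overlap in 459 of them (16.2%) on the higher and 184 on the lower side. Their median length was 1211 bases, and that of the members 1225 bases. These shares describe the list and are no test of it, since the members share libraries and are not independent. In bulk RNA, a change in the number of cells of a kind and a change in RNA per cell cannot be told apart.

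The differences lay in a narrow range. They ran from -0.08 (Mrpl52) to 0.17 (Mrpl13), with a standard deviation (SD) over members of 0.05, against 0.19 over all tested genes. The median standard error (SE) of a single member's difference was also 0.05, so the members differed from each other about as much as the fit's error on each. Over all tested genes the median SE was 0.07. Their mean levels ran from 0.297 to 9700 CPM, and those of the members from 15.4 to 152 CPM. The 2 SDs thus do not compare genes of like level. The 95% intervals of the members' differences together reached from -0.18 to 0.27, or from 0.880-fold to 1.21-fold. A larger change of any member than this lay outside its interval.

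**Figure D1:**
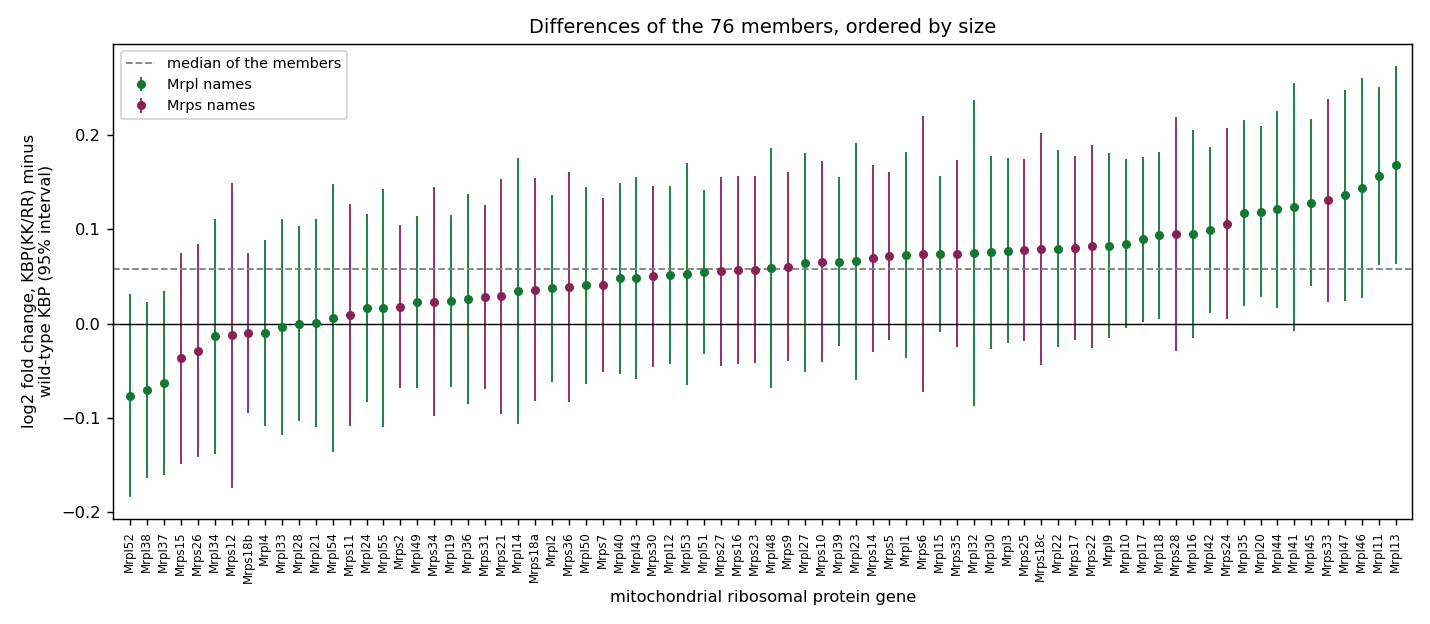
Log2 fold change (KBP(KK/RR) minus wild-type KBP, vertical axis) with its 95% interval for each of the 76 members, ordered by size, in green for Mrpl and purple for Mrps names. The points run from -0.08 to 0.17, 65 lie above 0, and the dashed line marks the members' median of 0.06.

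**Figure D2:**
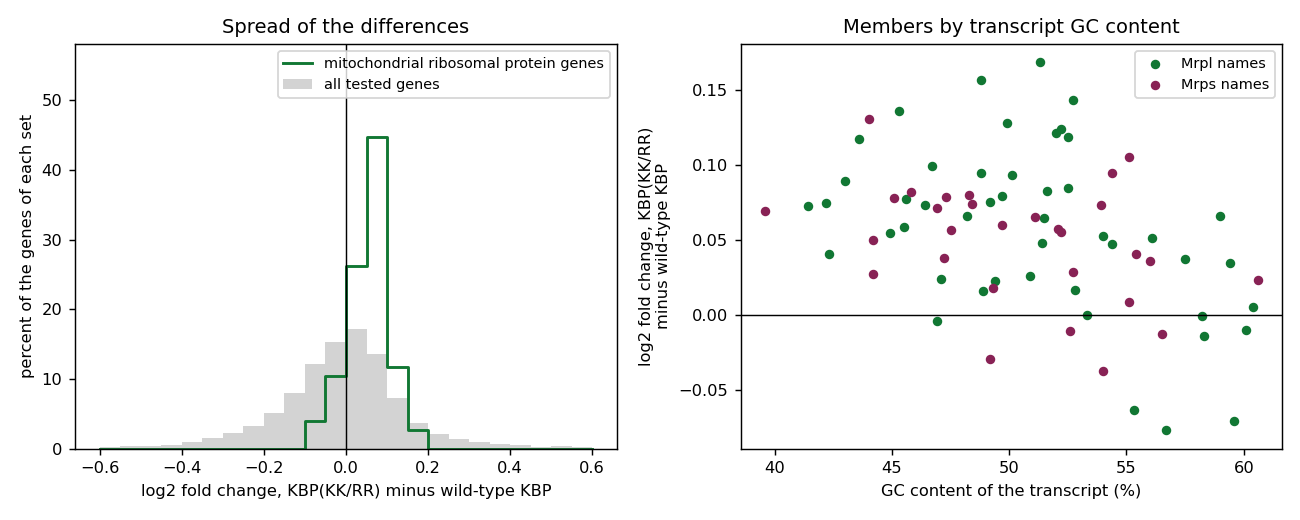
Left, share of genes (percent of each set) by log2 fold change in steps of 0.05, for all 14340 tested genes (grey, 230 of them outside the plotted range) and the 76 members (green line): 44.7% of the members and 13.6% of all tested genes lie between 0.05 and 0.1. Right, log2 fold change of each member against the GC content of its transcript in percent, where the 26 members of highest GC content have a median of 0.03 and the 25 of lowest a median of 0.07.

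The largest differences, those of Mrpl13 and Mrpl11, belonged to proteins of the large subunit. Mrpl11 (chromosome 19, 4962147 to 4966999, GRCm38) encodes a protein at the base of the flexible stalk, where translation factors bind. It measured 71.4, 72.2 and 70.0 CPM in wild-type KBP replicates 1, 2 and 3 and 77.2, 82.6 and 78.5 CPM in KBP(KK/RR) replicates 4, 5 and 6. All KBP(KK/RR) libraries lay above all wild-type KBP libraries, and the difference was 0.16 (SE 0.05, edgeR adjusted p = 0.0615). Mrpl13 (chromosome 15, 55534094 to 55557748), a protein with a bacterial counterpart, measured 49.8, 53.3 and 47.6 CPM in wild-type KBP and 57.8, 55.3 and 56.5 CPM in KBP(KK/RR) libraries. Here too the groups did not overlap, with a difference of 0.17 (SE 0.05, edgeR adjusted p = 0.0707). Part of the exons of Mrpl13 overlaps those of Mtbp on the other strand. The strand setting of the counting is not given in the sources used here, and 27 of the 76 members share exon bases with a gene on the other strand. Of the members named here these are also Mrpl3, Mrpl10, Mrpl12, Mrpl14, Mrpl18, Mrpl24, Mrpl44, Mrpl46, Mrpl47, Mrpl48, Mrps11, Mrps18b, Mrps25, Mrps26 and Mrps34. Reads of such pairs may not be told apart. Mrpl3, Mrpl33, Mrps6, Mrps18c, Mrps24 and Mrps34 share exon bases with a gene on the same strand.

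Mrpl45 (chromosome 11) encodes a protein near the mouth of the exit tunnel that meets the inner membrane. Its wild-type KBP libraries were nearly equal, at 125, 124 and 125 CPM, and its KBP(KK/RR) libraries measured 130, 136 and 143 CPM. The difference was 0.13 (SE 0.04, edgeR adjusted p = 0.106). Mrpl20, which binds ribosomal RNA, was the tightest of this set, with 73.5, 73.5 and 71.6 CPM against 79.5, 78.2 and 79.7 CPM and a difference of 0.12 (edgeR adjusted p = 0.147). Groups that did not overlap were also seen for Mrpl46, a protein of the central protuberance (31.3 ± 1.88 CPM, mean ± SD, against 34.5 ± 0.810 CPM, n = 3 each here and below), for Mrpl47, which sits by the tunnel exit (35.8 ± 1.34 against 39.4 ± 1.80 CPM), for Mrpl35 (63.7 ± 2.37 against 69.1 ± 2.29 CPM) and for Mrps33 of the small subunit (37.8 ± 1.39 against 41.4 ± 1.29 CPM). Their differences were 0.14, 0.14, 0.12 and 0.13, and none passed the threshold in edgeR (adjusted p from 0.170 to 0.185). With a trend on transcript length and GC content removed, the difference of Mrpl20 was 0.07 and that of Mrps33 0.06. Mrpl11 then stood at 0.14, Mrpl13 at 0.12 and Mrpl45 at 0.11. Mrpl46 and Mrpl47 stood at 0.10 and Mrpl35 at 0.08.

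Single settings of the analysis brought 3 members past the threshold. The edgeR adjusted p of Mrpl11 was 0.0403 with upper-quartile scaling, 0.0335 without a filter on low counts, 0.0306 with the length and GC trend removed, and 0.0261 with KBP(KK/RR) replicate 4 left out. For Mrpl13 the edgeR adjusted p was 0.0455 with upper-quartile scaling and 0.0309 without the filter, and for Mrpl45 it was 0.0241 with KBP(KK/RR) replicate 4 left out. These settings also called 3.07% (upper-quartile scaling), 5.07% (no filter), 5.1% (trend removed) and 5.36% (KBP(KK/RR) replicate 4 left out) of all genes tested in them. No member was called with library totals (3.03% of all genes), DESeq2 size factors in edgeR (3.09%) or a mean count of at least 50 (3.45%). The same held when a wild-type KBP library was left out (2.85%, 1.21% and 1.9% of all genes for replicates 1, 2 and 3). It also held for KBP(KK/RR) replicates 5 (1.93%) and 6 (0.852%). In these edgeR fits with a library left out 4 to 12 members had an unadjusted p under 0.05. The share of all genes with such a p is not given for these fits. Over all alternatives, edgeR, DESeq2 and limma-voom together, the adjusted p ran from 0.0261 to 0.189 for Mrpl11, from 0.0309 to 0.226 for Mrpl13 and from 0.0241 to 0.432 for Mrpl45. Without KBP(KK/RR) replicate 6 the edgeR values were 0.167, 0.218 and 0.432. The differences of Mrpl11, Mrpl13 and Mrpl45 stayed positive in every alternative run.

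On the lower side, 11 members had a negative difference, and for each of them the libraries of both groups overlapped. Mrpl52, a mitochondria-specific protein of the large subunit, measured 40.1, 39.6 and 38.2 CPM in wild-type KBP and 36.2, 37.0 and 38.7 CPM in KBP(KK/RR) libraries. Its difference was -0.08 (SE 0.05, edgeR adjusted p = 0.452). Mrpl38 measured 84.5, 82.4 and 85.9 CPM against 77.2, 82.7 and 81.0 CPM, and Mrpl37 84.9, 83.8 and 88.8 CPM against 79.0, 80.7 and 86.6 CPM. Their differences were -0.07 and -0.06 (edgeR adjusted p 0.424 and 0.497). With KBP(KK/RR) replicate 4 left out both stood at -0.04, as did Mrpl38 with the length and GC trend removed and Mrpl37 with wild-type KBP replicate 3 left out. Without KBP(KK/RR) replicate 6 Mrpl37 stood at -0.10. Mrps15 (-0.04), Mrps26 (-0.03), Mrpl34 (-0.01), Mrpl4 (-0.01) and Mrps18b (-0.01) came next by p-value, with edgeR adjusted p from 0.760 to 0.939.

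**Figure D3:**
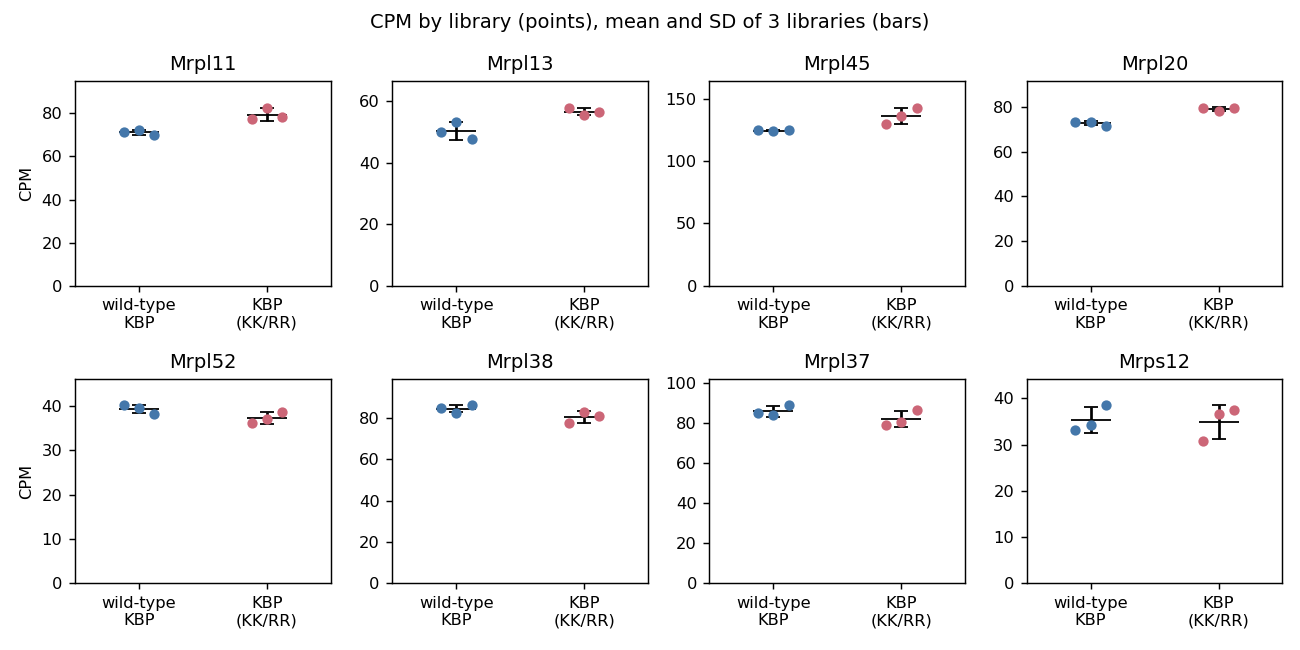
Level in CPM (vertical axis, from 0) of 8 members in each library (points), with the mean and SD of the 3 libraries of each group (black bars), wild-type KBP on the left and KBP(KK/RR) on the right of each panel. In the upper row (Mrpl11, Mrpl13, Mrpl45, Mrpl20) the groups do not overlap, and in the lower row (Mrpl52, Mrpl38, Mrpl37, Mrps12) they do.

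Libraries of 1 group differed in how high the whole set stood. Summed over members, the level was 4289, 4251 and 4241 CPM in wild-type KBP replicates 1, 2 and 3 and 4344, 4421 and 4516 CPM in KBP(KK/RR) replicates 4, 5 and 6. As a share of all counts this was 0.430%, 0.424% and 0.421% against 0.433%, 0.446% and 0.451%. Each KBP(KK/RR) library thus stood above each wild-type KBP library, with the nearest pair (wild-type KBP replicate 1 and KBP(KK/RR) replicate 4) close together. KBP(KK/RR) replicate 6 was the highest of the 6 libraries for 42 members and the lowest for 0, whereas wild-type KBP replicate 3 was the lowest for 31 members. KBP(KK/RR) replicate 4 was the highest for 10 members and the lowest for 17. Without KBP(KK/RR) replicate 6 the members' median difference was 0.05 with 60 positive members, and without KBP(KK/RR) replicate 4 it was 0.07 with 70.

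**Figure D4:**
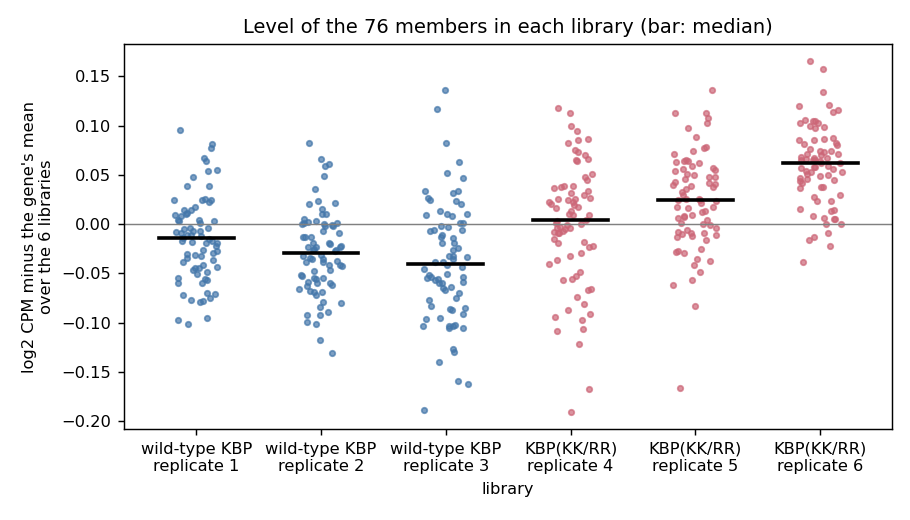
Log2 CPM of each member minus that gene's mean over the 6 libraries (vertical axis), by library, in blue for wild-type KBP and red for KBP(KK/RR), with a black bar at the median of the 76 members. From left to right the medians are -0.01, -0.03, -0.04, 0.0033, 0.03 and 0.06.

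The median difference was positive in both subunits and for both classes of protein in each, and no class had a member called by edgeR. Of 30 large-subunit proteins with a bacterial counterpart 26 had a positive difference (median 0.07), as had 16 of 19 large-subunit proteins classed as mitochondria-specific (median 0.05). In the small subunit these numbers were 14 of 16 (median 0.06) and 8 of 10 (median 0.06). Mrps18a and Mrps18b were classed as mitochondria-specific, although they are paralogs of Mrps18c, which was classed with the bacterial counterparts. In edgeR 11 of 47 Mrpl genes (23.4%) and 2 of 29 Mrps genes (6.9%) had an unadjusted p under 0.05, all on the higher side, against 8.32% of all tested genes on that side. Whether the subunits differ was not tested. Among these Mrps genes was Mrps24 (44.4 ± 0.547 against 47.8 ± 1.33 CPM, difference 0.11), a protein of the messenger RNA entry site. The other was Mrps33.

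Around the stalk, Mrpl10, its anchor on the ribosome, measured 103, 96.5 and 102 CPM in wild-type KBP and 104, 109 and 106 CPM in KBP(KK/RR) libraries, a difference of 0.08 (edgeR adjusted p = 0.298). Mrpl12, which forms the mobile arm of the stalk and is also known to bind the mitochondrial RNA polymerase, overlapped between groups, with 123, 130 and 130 CPM against 124, 135 and 138 CPM (difference 0.05, edgeR adjusted p = 0.577). With KBP(KK/RR) replicate 4 or 6 left out it stood at 0.10 and 0.02, and with wild-type KBP replicate 1 left out at 0.02. All 7 proteins listed around the exit tunnel had a positive difference, with a median of 0.09 and a range from 0.02 (Mrpl24) to 0.14 (Mrpl47). Besides Mrpl45 and Mrpl47 they include Mrpl44, which carries a ribonuclease-like fold (47.1 ± 1.54 against 51.3 ± 2.10 CPM, difference 0.12), and Mrpl17 (110 ± 3.59 against 117 ± 2.27 CPM, difference 0.09). Neither was called by edgeR (adjusted p 0.195 and 0.258).

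The paralogs Mrps18a, Mrps18b and Mrps18c share an origin but sit at different places, Mrps18a in the large subunit and the others in the small one. Mrps18b measured 114, 114 and 113 CPM in wild-type KBP and 112, 111 and 115 CPM in KBP(KK/RR) libraries, among the steadiest values of the set. Mrps18a measured 28.7, 28.9 and 29.6 CPM against 28.3, 31.6 and 29.6 CPM, and Mrps18c 29.6, 31.8 and 27.7 CPM against 31.3, 30.3 and 32.7 CPM. The differences were -0.01 (95% interval -0.09 to 0.07) for Mrps18b, 0.04 (-0.08 to 0.15) for Mrps18a and 0.08 (-0.04 to 0.20) for Mrps18c, all with overlapping groups. With the length and GC trend removed Mrps18c stood at 0.03, and with wild-type KBP replicate 2 or 3 left out at 0.14 and 0.03, and it stood at 0.05 without KBP(KK/RR) replicate 6. Mrps36, whose protein is now placed in the oxoglutarate dehydrogenase complex and not in the ribosome, measured 22.1 ± 0.104 CPM against 22.7 ± 0.365 CPM, a difference of 0.04.

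Levels within the set were compared as CPM per kilobase of transcript (CPM/kb), averaged over the 6 libraries. The median member stood at 36.7 CPM/kb, against 7.35 CPM/kb for all tested genes, and 74 of 76 members lay above that second value. The order began with Mrpl42 at 148 CPM/kb, Mrps18b at 105 CPM/kb, Mrpl20 at 99.5 CPM/kb and Mrpl12 at 98.7 CPM/kb, and the last 3 of these overlapped over the 6 libraries. Counts are per gene, but the length is that of 1 transcript, so this order depends on the transcript taken. For Mrpl42 it has 666 bases where all annotated exons cover 3682. For Mrps18b these lengths are 1079 and 2089 bases, and for Mrpl20 764 and 1664 bases. In CPM, Mrpl42 measured 95.1 ± 2.93 in wild-type KBP and 102 ± 0.199 in KBP(KK/RR) libraries, a difference of 0.10 (SE 0.04, edgeR adjusted p = 0.211), with no overlap of the groups. With the length and GC trend removed this difference was 0.04. The lowest levels were those of Mrpl32 (5.64 CPM/kb), Mrpl48 (5.83 CPM/kb), Mrps25 (9.05 CPM/kb) and Mrps26 (9.26 CPM/kb). These 4 have long annotated transcripts of 3013, 4285, 6073 and 4278 bases, so a shorter form in use would raise their level per length. Most exon bases of Mrps25 are shared with Nr2c2 on the other strand. Over replicates the widest spread belonged to Mrps12, a protein of the decoding centre (33.2, 34.2 and 38.5 CPM against 30.7, 36.6 and 37.6 CPM), Mrpl32 (17.6, 15.9 and 16.3 CPM against 18.1, 15.1 and 19.0 CPM) and Mrps6 (22.9, 24.5 and 20.3 CPM against 23.0, 22.7 and 25.8 CPM). For each of these 3 the groups overlapped, and over the fits with a library left out the difference of Mrps6 ran from 0.0070 to 0.14.

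The difference of a member went along with the GC content of its transcript. The 11 members with a negative difference had a median GC content of 56.5%, and the 65 with a positive one 49.7%. With the members divided into 3 groups by GC content, 24 of 25 in the lowest, 23 of 25 in the middle and 18 of 26 in the highest group had a positive difference, with medians of 0.07, 0.07 and 0.03. Across the 76 members Pearson's r between GC content and difference was -0.42, a description over genes that share libraries and whose GC content also goes with length (r = -0.61). All tested genes, divided into 5 groups by GC content, had a median difference of 0.02 in the lowest and -0.05 in the highest group. Divided into 5 groups by transcript length, they went from a median of 0.03 in the shortest (median length 1211 bases) to -0.06 in the longest (6499 bases). The members' median length was 1225 bases. Within the set the order by length was the other way, with a median of 0.04 in the shortest and 0.07 in the longest of 3 groups. With the length and GC trend removed from each library, the members' median was 0.03, against 0.06 without this step, and 57 of 76 were positive, against 50.5% of all tested genes. Pearson's r with GC content was then -0.205, and members ran from -0.08 to 0.15. Of the 11 members with a negative difference 8 were still negative.

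Many members start beside another gene. Head-to-head neighbours, here protein-coding genes on the other strand whose start lies within 1000 bases and which run the other way, were found in the GENCODE annotation for 32 of 76 members (42.1%), against 11.1% of the 20342 protein-coding genes of the table that could be looked up. For 15 of these members the annotated 5′ ends overlap. Members and neighbours can be set side by side in 28 pairs whose neighbour was tested and is not itself a member. In these the member had a positive difference in 25 and the neighbour in 15, with medians of 0.05 and 0.01, and 0 neighbours were called by edgeR (unadjusted p under 0.05 for 1 higher and 1 lower). Mrpl18 and its neighbour Tcp1, a subunit of the cytosolic chaperonin, both stood at 0.09. Mrpl32 and Psma2, a proteasome subunit gene, stood at 0.08 and 0.06, but the value of Mrpl32 was 0.0077 with KBP(KK/RR) replicate 6 and 0.16 with replicate 5 left out. Mrpl13 stood at 0.17 and Mtbp at -0.04. Of the members named in these comparisons, Mrpl13, Mrpl18, Mrpl46 and Mrps11 share exon bases with the neighbour itself. The extreme neighbour was Eme2, a low-expressed nuclease subunit gene next to Mrps34 (difference -0.35, SE 0.13, edgeR adjusted p = 0.139).

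**Figure D5:**
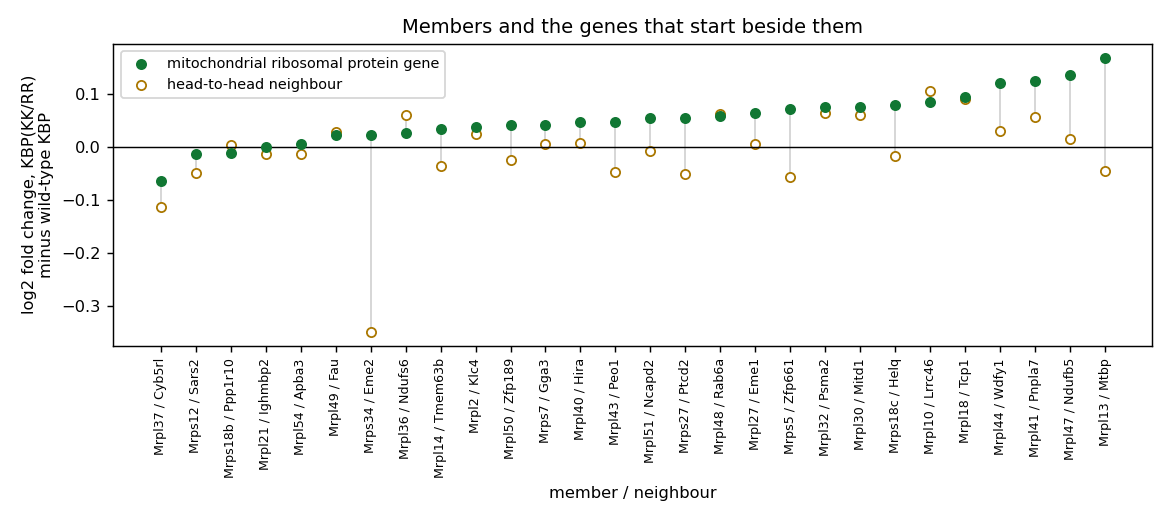
Log2 fold change (KBP(KK/RR) minus wild-type KBP, vertical axis) of 28 members (filled green) and of the gene that starts head-to-head beside each (open symbols), ordered by the member's value. The members have a median of 0.05 and the neighbours of 0.01, and the lowest neighbour is Eme2 at -0.35.

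In 1 case both genes are members: Mrpl46 of the large and Mrps11 of the small subunit run apart from starts that lie 41 bases from each other in RefSeq. Mrpl46 measured 33.1, 31.3 and 29.4 CPM in wild-type KBP and 34.6, 33.7 and 35.3 CPM in KBP(KK/RR) libraries, without overlap. Mrps11 measured 33.2, 30.8 and 29.9 CPM against 30.6, 31.1 and 32.8 CPM, with overlap, and its difference was 0.01 (95% interval -0.11 to 0.13) beside 0.14 (0.03 to 0.26) for Mrpl46. The stretch between their starts (chr7:78783090-78783130 on GRCm38.p6, plus strand) is shown because 2 members share it, with a GGGCGG box in capitals.
Mrpl46 to Mrps11: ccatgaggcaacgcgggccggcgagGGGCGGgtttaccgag

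RefSeq windows from 250 bases before to 50 after the start were at hand for 67 of the 76 members, and were searched on both strands for motifs of factors known to act at nuclear genes of mitochondria. The core GCATGCGC of NRF1 was in 11.9% of member windows, against 5.35% of windows of tested genes and 2.8% of all 27025 windows. The ETS family motif CCGGAAGT was in 16.4%, 7.82% and 4% of them, the YY1 core ATGGCGGC in 17.9%, 4.81% and 2.38%, and the SP/KLF box GGGCGG in 49.3%, 64.6% and 35.9%. The YY1 letters of members did not lie wholly within the 100 bases before the start. How many of them lay in the 50 bases after it was not counted. GCATGCGC can overlap itself on the other strand, and the other motifs were counted separately where they overlap. Members with and without each motif had median differences of 0.08 and 0.06 for NRF1, 0.06 and 0.06 for ETS, 0.05 and 0.06 for YY1 and 0.06 and 0.06 for SP/KLF. Positive differences, with and without the motif, were 6 of 8 and 52 of 59 for NRF1 and 8 of 11 and 50 of 56 for ETS. They were 11 of 12 and 47 of 55 for YY1 and 28 of 33 and 30 of 34 for SP/KLF. In the 100 bases before the start, 12 members carry the NRF1 or ETS letters, of which 10 had a positive difference, with a range from -0.03 (Mrps26) to 0.09 (Mrpl17) and a median of 0.07. These bases are shown for 6 of the 12, for each motif the member with the lowest difference (Mrpl33 and Mrps26) and 2 further examples chosen after their values were seen. For ETS these examples, Mrps22 and Mrpl3, have the highest differences of the 7 members with its letters there. The bases are also shown for Mrpl11, which has the smallest p and none of the 4 motifs there. Motifs are in capitals, and each stretch is read on the gene's own strand. The starts used here are those of RefSeq, and GENCODE can place them elsewhere. By the GENCODE gene positions, the stretches of Mrpl11, Mrpl32 and Mrpl33 lie wholly within the gene. Those of Mrpl3, Mrpl22 and Mrps26 lie partly within it.
Mrpl22 (chr11:58171564-58171663, plus strand, NRF1): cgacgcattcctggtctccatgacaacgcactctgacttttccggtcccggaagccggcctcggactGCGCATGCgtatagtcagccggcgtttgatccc
Mrpl32 (chr13:14613038-14613137, minus strand, NRF1 and SP/KLF): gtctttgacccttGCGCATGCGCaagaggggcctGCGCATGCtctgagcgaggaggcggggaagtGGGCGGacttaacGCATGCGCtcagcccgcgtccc
Mrpl3 (chr9:105053168-105053267, plus strand, ETS): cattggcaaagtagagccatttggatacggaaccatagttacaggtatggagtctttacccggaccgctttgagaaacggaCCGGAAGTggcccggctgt
Mrps22 (chr9:98601680-98601779, minus strand, ETS): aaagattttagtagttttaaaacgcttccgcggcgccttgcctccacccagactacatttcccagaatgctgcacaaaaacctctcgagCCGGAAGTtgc
Mrpl33 (chr5:31613851-31613950, plus strand, NRF1): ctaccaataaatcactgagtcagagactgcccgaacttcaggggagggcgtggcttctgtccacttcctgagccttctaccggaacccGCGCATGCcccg
Mrps26 (chr2:130563657-130563756, plus strand, ETS and SP/KLF): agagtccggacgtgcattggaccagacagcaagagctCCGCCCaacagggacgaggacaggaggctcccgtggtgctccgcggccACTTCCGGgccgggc
Mrpl11 (chr19:4962206-4962305, plus strand, no motif): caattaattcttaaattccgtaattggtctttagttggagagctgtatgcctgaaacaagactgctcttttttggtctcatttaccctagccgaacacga

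None of the 6 members shown with a motif was called by edgeR, and 0 of them had an unadjusted p under 0.05. Mrpl22, a protein lining the exit tunnel, measured 37.9, 38.9 and 38.2 CPM in wild-type KBP and 39.4, 41.2 and 41.0 CPM in KBP(KK/RR) libraries (difference 0.08). Mrpl3 measured 61.0, 59.4 and 61.7 CPM against 66.1, 61.2 and 64.6 CPM (0.08), and Mrps22 37.5, 35.3 and 37.7 CPM against 38.2, 39.2 and 39.4 CPM (0.08). Mrpl32 stood at 0.08 with overlapping groups. Mrpl33 measured 36.6, 37.3 and 33.2 CPM against 36.1, 35.4 and 35.3 CPM (-0.0035), and Mrps26 39.7, 40.0 and 40.3 CPM against 37.0, 38.6 and 42.0 CPM (-0.03), both with overlap. The edgeR adjusted p of these 6 ran from 0.397 to 0.981.

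Of 83 other tested genes of the same machinery 2 were called by edgeR (2.41%), a share near the 3.12% of all tested genes. Of 7 further proteins of the mitochondrial ribosome that carry other names, 4 had a positive difference (median 0.04) and 0 were called by edgeR. Dap3, a GTP-binding protein of the small subunit, measured 119, 117 and 120 CPM in wild-type KBP and 125, 125 and 131 CPM in KBP(KK/RR) libraries (difference 0.10, edgeR adjusted p = 0.181). Chchd1 of the small subunit stood at 0.09 and Ict1, a peptidyl-tRNA hydrolase built into the large subunit, at 0.08. Of 31 assembly and ribosomal RNA modification genes 18 were positive (median 0.004), 0 rose and 1 fell. The one that fell was Mterfd2 (now Mterf4), which brings a methyltransferase to the large subunit during its assembly. It measured 70.2, 68.8 and 62.0 CPM in wild-type KBP and 57.5, 56.3 and 52.4 CPM in KBP(KK/RR) libraries, without overlap (difference -0.28, SE 0.05, edgeR adjusted p = 0.00522). With KBP(KK/RR) replicate 6 left out it no longer passed (edgeR adjusted p = 0.0671). In the same list the ribosomal RNA methyltransferase gene Ftsj2 (now Mrm2) stood at 0.22 (edgeR adjusted p = 0.0953). Spg7, a subunit of the protease that matures the Mrpl32 protein, stood at -0.17 (85.8, 86.9 and 95.8 CPM against 77.6, 81.5 and 80.2 CPM, edgeR adjusted p = 0.0621).

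Of 20 translation factors and messenger RNA handling genes 13 were positive (median 0.03) and 0 were called, with Cox18, an inserter of membrane proteins, at 0.13, Mtrf1, a release factor homolog, at 0.13 and the RNA-binding protein gene Lrpprc at 0.11. Of 14 transcription and RNA processing genes 8 were positive (median 0.02) and 0 were called. Polrmt, the mitochondrial RNA polymerase gene, stood at -0.12 (99.4 ± 4.54 against 91.3 ± 6.13 CPM), Hsd17b10 at 0.10 and Pnpt1 at 0.07. Of the 11 tested regulators of nuclear genes of mitochondria 5 were positive, 1 rose and 0 fell. The one that rose was Mycn, a growth-related transcription factor gene, with 254, 242 and 256 CPM in wild-type KBP and 271, 274 and 295 CPM in KBP(KK/RR) libraries (difference 0.16, SE 0.04, edgeR adjusted p = 0.0379). It no longer passed in limma-voom (adjusted p = 0.0600) or, in edgeR, with 1 of these libraries left out: from the wild-type KBP group replicate 1 (adjusted p = 0.0589) or 2 (0.206), from the mutant group replicate 5 (0.0620) or 6 (0.260). Nrf1 stood at 0.10 (79.8 ± 1.09 against 85.2 ± 0.230 CPM) and Sp1 at -0.12 (306 ± 11.5 against 282 ± 21.5 CPM), neither called by edgeR (adjusted p 0.237 and 0.196). In the lists with 0 calls, the genes with an unadjusted p under 0.05 in edgeR were 1 of the 7 further ribosomal proteins, 2 of the 20 in the translation list and 1 of the 14 in the transcription list, where 18.6% of all tested genes had one in either direction.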

How the data were processed

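RNA was measured in 6 libraries, 3 per group, from total RNA depleted of ribosomal RNA, per the labels' protocols. The authors deposited raw read counts per gene symbol. The submitters' processing notes name bcl2fastq, TopHat, HTSeq and DESeq2 and the builds mm10 and GRCm38, with no versions. Annotation and strand setting: not given in the sources used here. A deposited normalized table, which by its values is the same counts divided by 1 factor per library, was not used.

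Counts were filtered with filterByExpr, scaled by TMM and tested in edgeR 4.0.16 (R 4.3.3; robust quasi-likelihood fit, group as the only term), with a Benjamini-Hochberg adjusted p under 0.05 over all tested genes as a call. Standard errors were obtained as |log2 fold change| / √F, and 95% intervals use the fit's degrees of freedom. CPM uses TMM-scaled totals. For length and GC content the longest RefSeq-linked transcript of each gene in GENCODE M21 was taken. Alternatives were DESeq2 1.42.0, limma-voom (limma 3.58.1), other scalings and filters, a threshold of 0.1, removal of a length and GC trend per library (splines with 5 degrees of freedom) and each library left out. The procedure was tested on simulated data, whose changed genes differed by more than any member did here. It was therefore not tested for changes as small as those of the members.

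No 2 libraries of a group were duplicates, since they differed by more than counting noise (2.70 to 7.17 in chi-square units per degree of freedom). The members and lists were chosen with earlier results of these data known. Named members were the 8 with the smallest p in each direction, the 4 highest and 4 lowest per kilobase, the 3 with the widest spread and the Mrps18 paralogs. From the other lists, called genes and the 3 with the smallest p were named. Members named besides were chosen after their values were seen, for their role, their start region, or as the lowest and highest by count.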

Additional observations from a re-analysis of the deposited data

How the results depend on the processing

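The members' median difference and the number of positive members kept their direction in all 15 alternatives. Among these, the threshold of 0.1 could not change either. The median moved beyond the spread between replicates in 1 of the alternatives, to 0.030 with the length and GC trend removed. It ran from 0.05 to 0.07 when single libraries were left out. Members called by edgeR were 2 with upper-quartile scaling, 2 without a filter on low counts, 1 with the trend removed and 2 at a threshold of 0.1, and 0 to 2 without single libraries, against 0. Over all genes 448 were called, against 270 with limma-voom, 966 without the filter, 731 with the trend removed, 823 at a threshold of 0.1 and 122 to 767 without single libraries. With upper-quartile scaling the calls divided into 235 higher and 205 lower, against 151 and 297. Of the other mitochondrial gene lists 2 genes were called, against 1 with limma-voom, 4 at a threshold of 0.1 and 0 to 2 without single libraries. Of 25 named members 18 never changed sign. Of the others, Mrps18b (0.0077), Mrpl34 (0.0046), Mrpl4 (0.0086) and Mrps12 (0.0060) turned positive with upper-quartile scaling, and Mrpl34 (0.0001) and Mrpl4 (0.019) with the trend removed. Without single libraries 7 changed sign, with ranges of -0.072 to 0.0021 (Mrps15), -0.084 to 0.014 (Mrps26), -0.027 to 0.0013 (Mrps18b), -0.065 to 0.043 (Mrpl34), -0.047 to 0.035 (Mrpl4), -0.071 to 0.075 (Mrps12) and -0.0059 to 0.074 (Mrps18a). The cause was not tested. No paired analysis was possible because the groups share no replicate number (1, 2 and 3 against 4, 5 and 6).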
